A study of Mus musculus with 7 samples.

Results

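The miR-15 family of the mouse is encoded by 6 hairpins in 3 clusters (mmu-mir-15a with mmu-mir-16-1, mmu-mir-15b with mmu-mir-16-2, and mmu-mir-497 with mmu-mir-195, now named mir-195a), and its tags were followed in small RNA libraries of HL-1 cells. Members were chosen by name: each sequenced tag was placed at its best ungapped hit over all mouse hairpins, and the tags that fell on these 6 of 1222 hairpins were summed by arm, by start, by end and by library. The 6 hairpins give 11 mature names of 1900, since the 5p miRNA of both miR-16 hairpins is the same molecule. HL-1 is an immortalised line of mouse cardiomyocytes of atrial origin, which was seeded sparsely and left to grow until it was confluent and beat spontaneously. Cells did not beat on day 1 and beat on day 4. SOLiD libraries came from days 1, 2, 3 and 4 of time course 2 and from days 1, 3 and 4 of time course 1, which was an independent repeat, so that day 2 had 1 library. All 7 libraries were untreated cells of this one line, and the day is also the density, so that the day, the density and the beating cannot be told apart.

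A miRNA silences messenger RNAs that pair with its seed, bases 2 to 8 from its 5′ end, and the miR-15 family is known for holding back the cell cycle through targets that include D-type cyclins, and for lowering the survival factor Bcl2. In the heart of the mouse, miR-195 is known to rise after birth, and an excess of it stops cardiomyocyte division early. A hairpin yields a duplex, one strand of which (here the 5p) is mostly kept while the other (here the 3p) is mostly lost, and the enzymes Drosha and Dicer can cut at neighbouring bases, which gives length and start variants called isomiRs.

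The 5 mature 5p sequences are shown because they share 1 seed and differ outside it. Capitals mark the seed, and all mature sequences are those of RefSeq (GRCm38.p6).
miR-15a-5p: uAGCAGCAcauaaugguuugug
miR-15b-5p: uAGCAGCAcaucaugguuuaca
miR-16-5p: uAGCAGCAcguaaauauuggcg
miR-195a-5p: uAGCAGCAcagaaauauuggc
miR-497a-5p: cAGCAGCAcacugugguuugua
miR-322-5p: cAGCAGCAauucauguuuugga
miR-503-5p: uAGCAGCGggaacaguacugcag
The last 2 belong to the related cluster on chromosome X and are shown for comparison. miR-322-5p has the AGCAGCA seed of the 5 members, whereas miR-503-5p has AGCAGCG. Counting positions from 1 at the 5′ end of miR-15a-5p, 18 of its 22 bases are the same in miR-15b-5p, and the differences are A12C, G20A, U21C and G22A. miR-497a-5p kept 17 of the 22 bases of miR-15a-5p, with U1C as the only change of a first base among the members. miR-16-5p and miR-195a-5p share 19 of 21 bases and are closer to each other than either is to miR-15a-5p, with which they share 16 of 22 and 15 of 21 bases.

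The 6 mature 3p sequences are shown because, unlike the 5p ones, no pair of them has the same seed (capitals, bases 2 to 8).
miR-15a-3p: cAGGCCAUacugugcugccuca
miR-15b-3p: cGAAUCAUuauuugcugcucua
miR-16-1-3p: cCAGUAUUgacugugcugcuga
miR-16-2-3p: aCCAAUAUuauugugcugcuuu
miR-195a-3p: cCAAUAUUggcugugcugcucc
miR-497a-3p: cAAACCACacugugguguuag
The hairpins lie in 3 places of GRCm38. Mir15a (chr14:61632027-61632110) and Mir16-1 (chr14:61631880-61631972) are on the minus strand, 54 bases apart, within an intron of the non-coding gene Dleu2. Mir15b (chr3:69009772-69009835) and Mir16-2 (chr3:69009902-69009996) are on the plus strand, 66 bases apart, within an intron of Smc4, which encodes a subunit of condensin. Mir497 (chr11:70234717-70234800) and Mir195a (chr11:70235042-70235135) are on the plus strand, 241 bases apart, with the annotated hairpin Mir497b on the opposite strand of Mir497 and no other host gene in GENCODE M21.

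The deposited tables held 4945112 to 6899476 tags per library. Over all libraries, 99.4% of these began within 3 nucleotides of the start of an arm and were counted for that arm (generic tags). The authors reported many more usable tags, of which about as many as were deposited mapped to known miRNA hairpins. The 99.4% therefore does not describe all small RNA that was sequenced. Levels are given as CPM, the tags of an arm scaled to a total of 1000000 generic tags in each library, which cannot show a change shared by all miRNAs, and in RNA from whole cultures fewer cells of a kind and less RNA per cell cannot be told apart. The summed level of the muscle miRNAs (miR-1, miR-133 and others, 8 of 8 names with a tag) was 93167 to 110736 CPM on days 3 and 4 and 90662 to 105204 CPM on days 1 and 2. Endothelial names summed to 614 to 925 CPM on days 3 and 4 and to 484 to 702 CPM on days 1 and 2, ranges that overlap. Blood names summed to 33.6 to 40.8 CPM on days 3 and 4 and to 39.99 to 57.2 CPM on days 1 and 2. The 1 hepatocyte name, miR-122-5p, had only 95 tags over all libraries. It was at 0.56 to 2.03 CPM on days 3 and 4 and 2.18 to 4.19 CPM on days 1 and 2. Among all tested miRNAs, 12.1% likewise lay wholly lower on days 3 and 4. Fibroblast, epithelial and neuronal names summed to at most 27.2 CPM in any library. The part of such cells in the results that follow was not tested.

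All 11 members had tags in every library and together made up 2.64% of the generic tags, of which the 5p arms gave 2.47% and the 3p arms 0.175%. miR-15b-5p was the most abundant member, with 661141 tags, and ranked 14 among all miRNAs by tags. It took 65.3% of the 5p tags of the family on average over the 7 libraries. miR-195a-5p followed with 15.7%, then miR-497a-5p with 7.84%, miR-16-5p with 7.16% and miR-15a-5p with 4.06%. With miR-322-5p and miR-503-5p added, the 5p tags of the extended family came to 3.00% of the generic tags.

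miR-15b-5p was at 16530, 19551, 15293 and 19031 CPM on days 1, 2, 3 and 4 of time course 2 and at 14452, 13711 and 14239 CPM on days 1, 3 and 4 of time course 1. For days 1 to 4 of time course 2, miR-195a-5p was at 4324, 3725, 4032 and 3816 CPM, and for days 1, 3 and 4 of time course 1 at 4174, 2790 and 4102 CPM. Both stayed within a narrow range, with SDs of 2353 on a mean of 16115 CPM and of 511 on a mean of 3852 CPM over the 7 libraries. miR-15b-5p was higher in all 4 libraries of time course 2 than in any of time course 1, and miR-195a-5p had its lowest value on day 3 of time course 1.

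miR-497a-5p was at 2105, 2352, 1495 and 1122 CPM over days 1, 2, 3 and 4 of time course 2, with 1984, 2246 and 2058 CPM on days 1, 3 and 4 of time course 1. miR-16-5p was at 1722, 1170, 1470 and 1957 CPM on days 1, 2, 3 and 4 of time course 2 and at 2637, 1295 and 2001 CPM on days 1, 3 and 4 of time course 1. For days 1 to 4 of time course 2, miR-15a-5p was at 948, 1115, 938 and 950 CPM, and for days 1, 3 and 4 of time course 1 at 1174, 954 and 892 CPM. The lowest miR-497a-5p value was on day 4 of time course 2, while miR-16-5p was lowest on day 2 and highest on day 1 of time course 1. miR-15a-5p, from the host gene Dleu2, varied least, with an SD of 105 on a mean of 996 CPM.

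**Figure D1:**
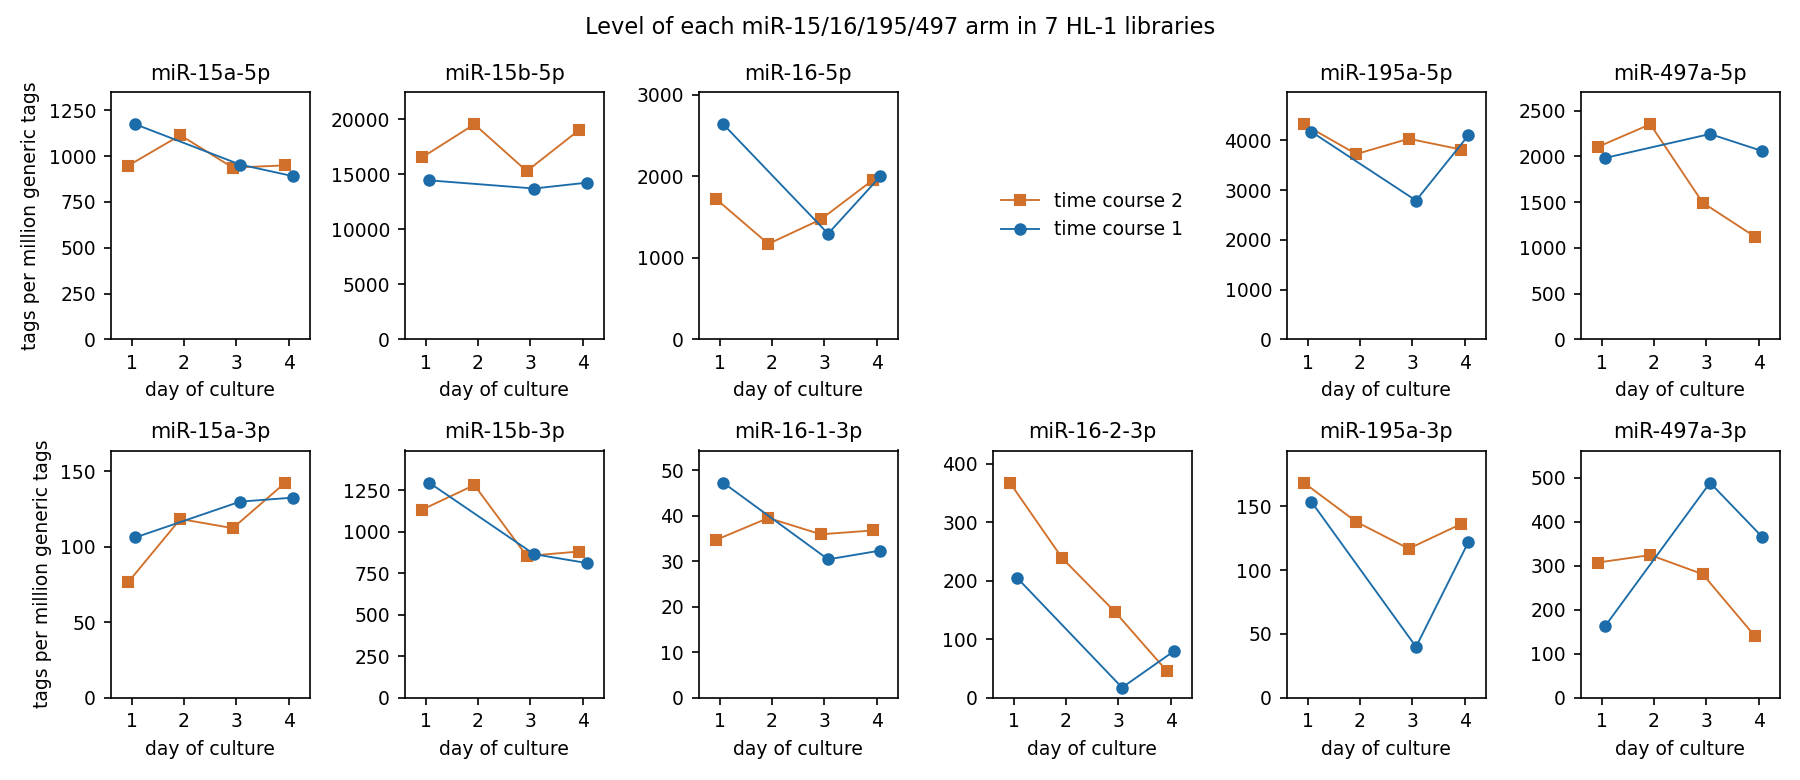
Levels of the 11 members by day, in CPM on linear axes that start at 0 and have their own scale for each member, with 1 point per library and lines joining the libraries of a time course. miR-15b-5p is above every other member in all 7 libraries, and miR-16-2-3p spreads over a 20.9-fold range.

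Each 3p arm was lower in every library than the 5p arm of its hairpin, with miR-16-5p of both hairpins pooled for the miR-16 copies. All 3p arms but miR-16-1-3p varied more than that 5p arm relative to their means. miR-15b-3p was at 1134, 1282, 855 and 882 CPM over days 1, 2, 3 and 4 of time course 2, with 1296, 866 and 813 CPM on days 1, 3 and 4 of time course 1. miR-497a-3p was at 307, 324, 281 and 140 CPM on days 1, 2, 3 and 4 of time course 2 and at 163, 488 and 365 CPM on days 1, 3 and 4 of time course 1. miR-15b-3p was lower on days 3 and 4 than on days 1 and 2 in every library, and miR-497a-3p had its 2 highest values in time course 1, on days 3 and 4.

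For days 1 to 4 of time course 2, miR-16-2-3p was at 367, 238, 147 and 45.2 CPM, and for days 1, 3 and 4 of time course 1 at 205, 17.5 and 80.3 CPM. miR-15a-3p was at 76.4, 118, 112 and 142 CPM over days 1, 2, 3 and 4 of time course 2, with 106, 130 and 133 CPM on days 1, 3 and 4 of time course 1. The highest miR-16-2-3p value was 20.9 times the lowest, which rested on 94 tags, and every value of days 3 and 4 lay below every value of days 1 and 2. miR-195a-3p was at 117 to 136 CPM on days 3 and 4, apart from 39.9 CPM on day 3 of time course 1, and at 138 to 168 CPM on days 1 and 2. miR-16-1-3p, the rarest member, was at 30.4 to 47.2 CPM in all libraries.

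Neighbours in the order of mean level were compared within each library, as log2 ratios of CPM, by an exact two-sided sign-flip permutation test over the 7 libraries, adjusted by Benjamini-Hochberg over the 10 neighbouring pairs. The smallest p this test can give is 0.0156, and it treats libraries of the same time course as separate. The order came from the same 7 libraries, here and for the shares further on. These data thus set which pairs were tested and in which direction. Neighbours differed in 4 of the 10 pairs, each with an adjusted p of 0.0391 in this exact test and the same direction in 7 of 7 libraries. miR-15b-5p was above miR-195a-5p by 2.06 ± 0.26 (SD) on the log2 scale, and miR-195a-5p was above miR-497a-5p by 1.04 ± 0.48. miR-15a-5p was above miR-497a-3p by 1.86 ± 0.71, and miR-497a-3p above miR-195a-3p by 1.24 ± 1.20. miR-497a-5p and miR-16-5p differed by 0.13 ± 0.63, with miR-497a-5p higher in 5 libraries, and could not be placed in an order (exact sign-flip permutation test, adjusted p = 0.848). The same held for miR-15b-3p and miR-15a-5p, whose log2 ratio was 0.01 ± 0.18 with miR-15b-3p higher in 3 of 7 libraries, although the first is a passenger arm and the second a main arm. The other 4 pairs did not pass either. When only tags that start within 1 nucleotide of the annotated base were counted, 0 of the 10 pairs passed, and the same was found for the starts and ends described further on.

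Whether the family changed as the cells became confluent and beat was tested with edgeR's quasi-likelihood test (TMM scaling, Benjamini-Hochberg adjustment over 597 miRNAs). None of the 11 members passed an adjusted p of 0.05 for day 4 against day 1, where 0 of 597 miRNAs passed (0%), or for day 3 against day 1, where again 0 of 597 passed (0%). Before adjustment 63 miRNAs (10.6%) had a p under 0.05 for day 4 against day 1 and 33 (5.53%) for day 3 against day 1, and DESeq2 called 9 and 8 miRNAs, none of them a member. For days 3 and 4 together against days 1 and 2 together, 3 of 527 miRNAs passed (0.569%, and 6 with the time course as a block), again with no member among them. Before adjustment 66 miRNAs (12.5%) had a p under 0.05 there, and DESeq2 called 15, of which miR-16-2-3p was 1.

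The log2 fold changes of the 5p arms for day 4 against day 1 lay close to 0. They were 0.29 ± 0.25 (SE) for miR-15b-5p, 0.10 for miR-195a-5p, 0.06 for miR-16-5p, -0.01 for miR-15a-5p and -0.15 ± 0.40 for miR-497a-5p, with edgeR adjusted p from 0.70 to 0.997. The small values have no firm sign: that of miR-16-5p and that of miR-195a-5p became -0.14 and -0.10 when the library totals were used in place of TMM, a choice that shifts the median of all miRNAs to -0.18. The value of miR-15b-5p was 0.093 without day 4 of time course 2 and 0.51 without day 4 of time course 1. Taken within each time course on the same TMM scale, miR-497a-5p had a log2 ratio of day 4 to day 1 of -0.78 in time course 2, against 0.32 in time course 1. The ratio of miR-16-5p was 0.31 in time course 2, against -0.13 in time course 1, and that of miR-195a-5p was -0.05 in time course 2, against 0.24 in time course 1. Of the 5 main arms, miR-15b-5p alone had a ratio of one sign in both time courses on this scale, at 0.33 in time course 2 and 0.24 in time course 1, but with library totals these were 0.20 (time course 2) and -0.02 (time course 1).

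Among the 3p arms the largest value was that of miR-16-2-3p, the passenger strand of the miR-16 copy in Smc4. Its log2 fold change was -1.98 ± 0.87 (SE) for day 4 against day 1 (edgeR adjusted p = 0.497), -1.68 ± 0.87 for day 3 against day 1 (edgeR adjusted p = 0.877) and -1.72 ± 0.56 for days 3 and 4 against days 1 and 2 (edgeR adjusted p = 0.274). The ratio of day 4 to day 1 was below 0 in both time courses, at -2.89 in time course 2 and -1.08 in time course 1 (TMM scale). Of the 11 members, each with its alternatives computed in the 4 comparisons of levels (165 values per comparison), it was the one that passed under any: with no filter on low counts for day 4 against day 1 (edgeR adjusted p = 0.00415) and day 3 against day 1 (edgeR adjusted p = 0.0284), and with DESeq2 for days 3 and 4 against days 1 and 2 (adjusted p = 0.0416). The value for day 3 depends on the library, at -0.84 without the day 3 library of time course 1 and -3.79 without that of time course 2.

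The log2 fold change of miR-15a-3p was 0.79 ± 0.34 (SE) for day 4 against day 1 (edgeR adjusted p = 0.479). It was above 0 in both time courses, at 1.03 in time course 2 and 0.58 in time course 1 (TMM scale). miR-15b-3p was at -0.32 ± 0.28 (edgeR adjusted p = 0.70), with ratios on the same scale of -0.23 in time course 2 and -0.41 in time course 1. miR-497a-3p had ratios of opposite sign, at -1.01 in time course 2 and 1.43 in time course 1. A fit with a term for the interaction of day and time course called 0 of 597 miRNAs (40 before adjustment), and within it miR-497a-3p had an edgeR adjusted p of 0.694 and an unadjusted p of 0.0130.

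In CPM, the days 3 and 4 libraries lay wholly below the days 1 and 2 libraries for 3 of the 11 members, miR-15b-3p, miR-16-2-3p and miR-195a-3p, as they did for 12.1% of all tested miRNAs. No member lay wholly above, against 2.47% of all tested miRNAs. After TMM scaling, miR-195a-3p overlapped, miR-15b-3p and miR-16-2-3p were still wholly lower (background 8.16%), and miR-15a-3p was wholly higher (background 6.26%). The members that did not overlap were all 3p arms.

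Time course 2 was set against time course 1 in a fit that held the day, to see how much of the spread went with the repeat. It called 25 of 597 miRNAs (4.19%, 16 higher and 9 lower in time course 2), and no member, with 140 miRNAs (23.5%) at an unadjusted p under 0.05. The log2 fold changes were 0.20 ± 0.16 (SE) for miR-15b-5p, -0.21 ± 0.22 for miR-16-5p, -0.51 for miR-497a-5p and 0.94 ± 0.65 for miR-16-2-3p, with edgeR adjusted p from 0.264 to 0.61. The value of miR-16-2-3p turned on single libraries: it passed with no filter on low counts (1.02, edgeR adjusted p = 0.0309), was 1.87 without day 4 of time course 2, where it passed as well (edgeR adjusted p = 6.55e-06), and 0.02 without either day 3 library. miR-15b-5p had all of its time course 2 CPM values above those of time course 1, as had 13.6% of tested miRNAs, but not after TMM scaling. Its share of tags past the annotated end was also wholly higher in time course 2 (8.92% of miRNAs), and the share with another start was wholly higher there for miR-15b-5p, miR-16-5p and miR-195a-5p (9.54%) and wholly lower for miR-16-2-3p (6.87%).

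miR-322-5p, with the same seed on chromosome X, was more abundant than miR-195a-5p on average. It was at 4988, 4995, 3286 and 4721 CPM on days 1, 2, 3 and 4 of time course 2 and at 4714, 3928 and 4097 CPM on days 1, 3 and 4 of time course 1. miR-503-5p of the same cluster was at 859 ± 285 CPM (SD, n = 7). Neither passed for day 4 against day 1, with log2 fold changes of 0.06 for miR-322-5p and 0.53 for miR-503-5p. The other RefSeq miRNAs with the AGCAGCA seed were near absent, with 4 tags of miR-195b in all 7 libraries and 0 of miR-6342, miR-6353 and miR-6419.

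A list of 19 miRNAs known to restrain proliferation (let-7, miR-98, miR-26, miR-29 and miR-34 names with miR-322-5p and miR-503-5p, and none of the members) gave 0 calls for day 4 against day 1, with a median log2 fold change of 0.01 against 0.01 over all miRNAs. A list of 14 known to promote it (the miR-17-92 cluster and its relatives, with miR-21a, miR-221 and miR-222) also gave 0 calls. Of its values, 13 of 14 were below 0, with a median of -0.50 against 0.01 over all miRNAs. They ran from -1.30 for miR-221-3p through -0.03 for miR-93-5p to 0.82 for miR-25-3p. Several of the names share a cluster, so the values are not separate, and a shared fall was not tested. Between time courses, 1 of the 19 passed: let-7e-5p was lower in time course 2, at -1.05 ± 0.23 (SE, edgeR adjusted p = 0.0434), a call that is lost without either day 1 library, where 0 miRNAs passed.

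The share of a hairpin's generic tags that came from its 3p arm shows how far the passenger strand was retained. It averaged 13.2% ± 3.40 (SD, n = 7) for mir-497, 10.6% ± 2.22 for mir-15a, 10.1% ± 6.65 for the 2 mir-16 copies together, 5.98% ± 1.19 for mir-15b and 3.06% ± 0.809 for mir-195a. No neighbouring pair in this order passed the exact sign-flip test (0 of 4 called), although mir-15b was above mir-195a in 7 of 7 libraries (exact permutation, adjusted p = 0.0625). miR-195a, the member known from the postnatal heart, thus had the lowest mean 3p share.

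For days 1 to 4 of time course 2, the 3p share of mir-15a was 7.46, 9.61, 10.7 and 13.0%, and for days 1, 3 and 4 of time course 1 8.30, 11.99 and 12.9%. That of mir-15b was 6.42, 6.15, 5.29 and 4.43% over days 1, 2, 3 and 4 of time course 2, with 8.23, 5.94 and 5.40% on days 1, 3 and 4 of time course 1. That of the mir-16 copies was 18.9, 19.2, 11.1 and 4.02% on days 1, 2, 3 and 4 of time course 2 and 8.71, 3.57 and 5.33% on days 1, 3 and 4 of time course 1. The mir-15a share was higher in every library of days 3 and 4 than in any of days 1 and 2 (as were 5.67% of all 194 hairpins compared), and those of mir-15b and mir-195a were wholly lower (8.25% of hairpins). The mir-15a and mir-15b shares therefore lay on opposite sides. Their 5p arms differ at 4 bases, and their 3p arms have different seeds. No hairpin of the 194 passed for day 4 against day 1 with limma on the log2 odds of the share (0%, with 17 or 8.76% before adjustment), where the mir-16 copies had a difference of -1.62 ± 0.72 (SE, limma adjusted p = 0.51). That difference was -0.97 without day 1 of time course 2 and -2.26 without day 1 of time course 1.

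**Figure D2:**
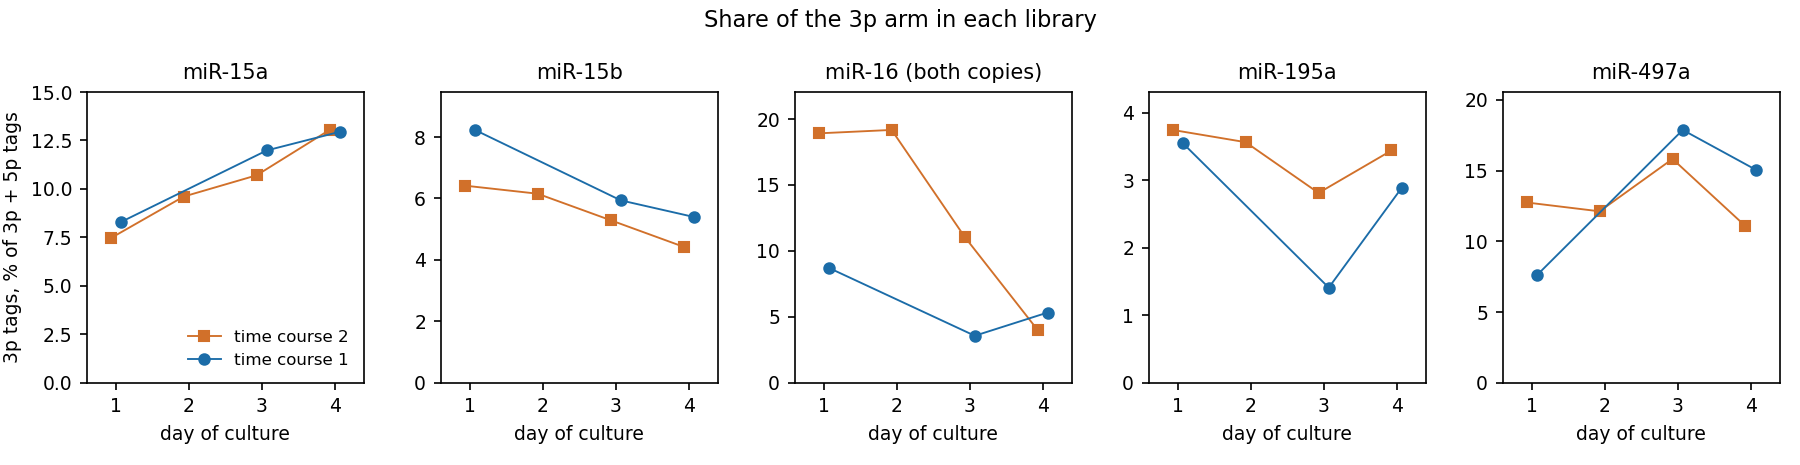
Share of each hairpin's generic tags that came from the 3p arm, in percent by day, with 1 point per library, lines joining the libraries of a time course and an axis from 0 for each hairpin. The mir-15a share is highest and the mir-15b share lowest on day 4 of time course 2, at 13.0 and 4.43%.

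The 2 miR-16 copies give the same 5p miRNA, and can be told apart only by the base before it and by the second base past its 3′ end (T24A, counted from 1 at the 5p start, with the mir-16-1 base first). The most frequent tags that show this base are given here, with the telling base in capitals.
miR-16-5p from mir-16-1: tagcagcacgtaaatattggcgtT
miR-16-5p from mir-16-2: tagcagcacgtaaatattggcgtA
The mir-16-1 form had 2807 tags and the mir-16-2 form 1347 tags. Of the exactly matching miR-16-5p tags 9.78% were specific to a copy, 4092 to mir-16-1 and 2118 to mir-16-2, and the other 57283 could come from either. For days 1 to 4 of time course 2, mir-16-1 gave 71.8, 70.9, 68.0 and 66.4% of the copy-specific 5p tags, and for days 1, 3 and 4 of time course 1 57.6, 64.7 and 65.1%. mir-16-1 gave 8.63, 14.2, 19.6 and 44.8% of the 3p tags of the copies over days 1, 2, 3 and 4 of time course 2, with 18.8, 63.4 and 28.7% on days 1, 3 and 4 of time course 1. The Dleu2 copy thus led among the 5p tags in all 7 libraries, and the Smc4 copy led among the 3p tags in 6 of 7. The 5p share of mir-16-1 was above its 3p share in 7 of 7 libraries, by 38.0 ± 21.3 percentage points (SD). This comparison was chosen after the values were seen, has no test, and rests on long 5p tags, which may not stand for the shorter ones.

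**Figure D3:**
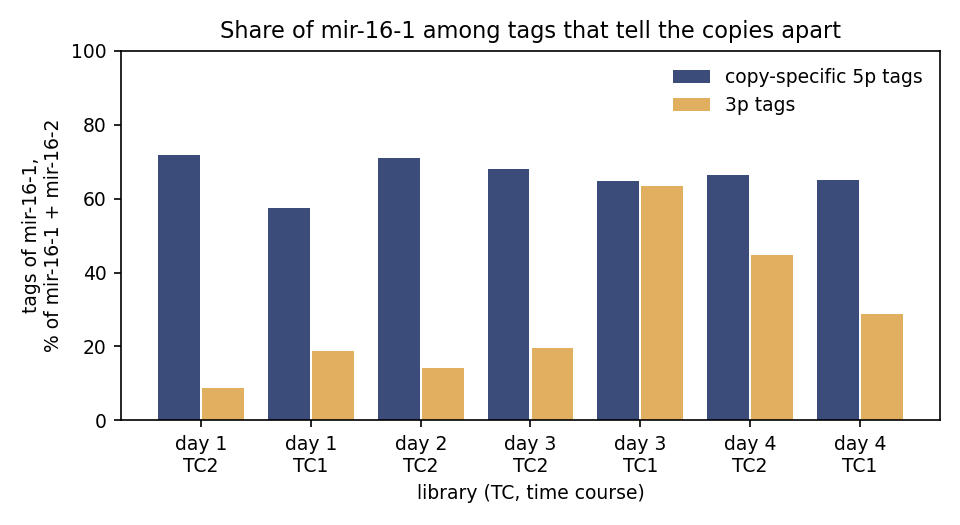
Percent of tags from mir-16-1 among the tags that can be given to one miR-16 copy, with 1 bar for the 5p and 1 for the 3p arm of each library. The 5p bars lie between 57.6 and 71.8% and the 3p bars between 8.63 and 63.4%.

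The 3′ ends varied from member to member. The share of tags that ended past the annotated end was 88.7% ± 2.91 (SD, n = 7) for miR-195a-5p and 90.4% ± 4.396 for miR-195a-3p, against 14.9% ± 3.49 for miR-497a-5p, from the same cluster. It was 35.2% ± 10.6 for miR-16-5p, 28.5% ± 6.96 for miR-15a-5p and 17.3% ± 2.31 for miR-15b-5p. No neighbouring pair in this order over the 11 members passed the exact sign-flip permutation test (smallest adjusted p = 0.0521). Among the tags that ran past the end, 99.5 to 100% had the bases of the hairpin there, except those of miR-15b-3p, of which 83.4% had them and 16.6% ran past the end of the annotated hairpin. The deposited tags had apparently been selected by their match to hairpins, so these shares cannot show how often bases were added without a template. The authors reported such additions in some of their generic tags.

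The commonest forms of the 5p members are shown because most of them did not stop at the annotated base, with the bases past the annotated end in capitals and the tags written as DNA.
miR-195a-5p, 2 bases longer: tagcagcacagaaatattggcAT
miR-195a-5p, 1 base longer: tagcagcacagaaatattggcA
miR-16-5p, 1 base longer: tagcagcacgtaaatattggcgT
miR-16-5p, 2 bases shorter: tagcagcacgtaaatattgg
miR-15a-5p, 1 base shorter: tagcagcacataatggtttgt
miR-497a-5p, 1 base shorter: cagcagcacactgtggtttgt
The 2 miR-195a-5p forms made up 34.9% (AT) and 33.3% (A) of its tags. By end, 1 base longer took 38.5% ± 3.49 (SD, n = 7) of the miR-195a-5p tags and 2 bases longer 37.4% ± 3.59, while the annotated end took 5.67%. The annotated miR-195a-5p, of 21 bases, was thus a minor form in HL-1 cells, and the mean length of the tags was 22.5 bases. miR-497a-5p and miR-15a-5p ended mostly 1 base early, in 71.8% ± 4.56 and 56.1% ± 6.87 of their tags, which leaves the seed as it is. miR-15b-5p was the 5p member whose annotated end was its commonest, with 39.9% ± 4.64.

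miR-16-5p had 2 main ends, 2 bases short of the annotated end with 32.2% ± 11.6 (SD, n = 7) of the tags and 1 base past it with 26.7% ± 8.56. The longer end led in 4 libraries and the shorter in 3. The share of miR-16-5p tags that ran past the annotated end was 48.0, 20.2, 41.8 and 24.7% on days 1, 2, 3 and 4 of time course 2 and 45.0, 29.2 and 37.2% on days 1, 3 and 4 of time course 1. The share was highest on day 1 in both time courses and lowest on day 2, so that the order of days was not that of the culture age. For day 4 against day 1 the log2 odds differed by -0.98 ± 0.40 (SE, limma adjusted p = 0.585), and 0 of 269 miRNAs passed (0%, with 18 or 6.69% before adjustment). The difference was -0.55 without day 4 of time course 2.

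**Figure D4:**
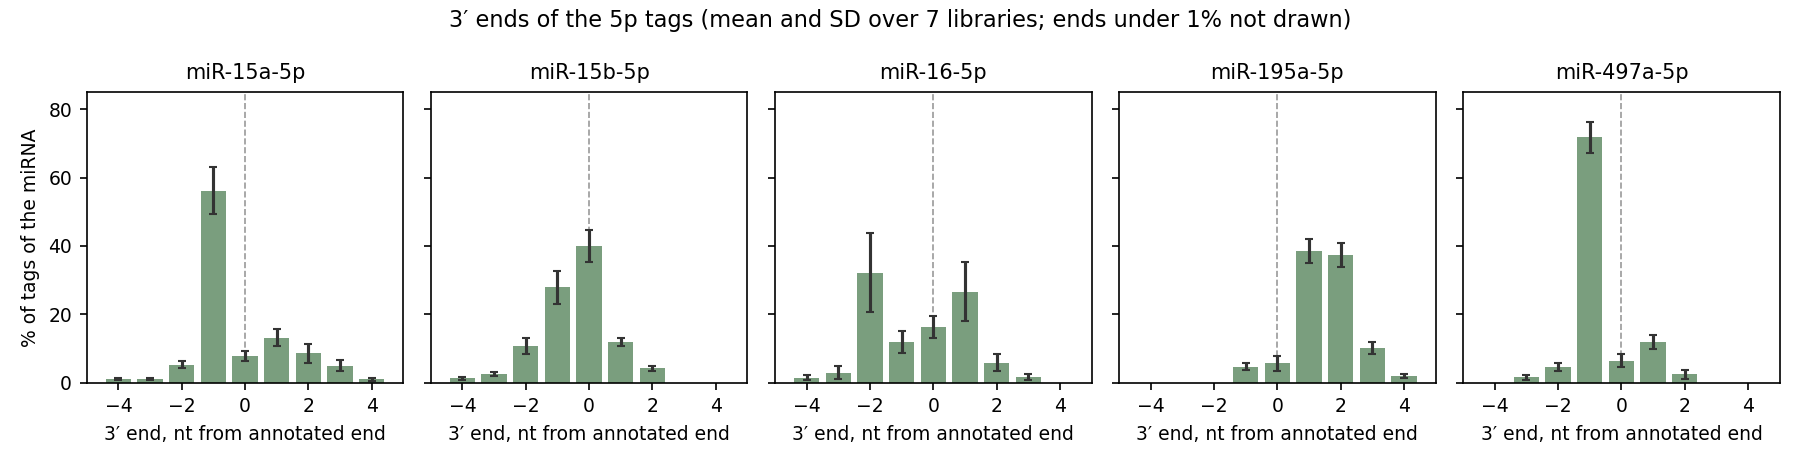
Ends of the 5p members in nucleotides from the annotated 3′ end, as the mean percent of each member's tags over 7 libraries, with error bars of 1 SD, the annotated end as a dashed line and rare ends left out. miR-195a-5p ends mostly 1 or 2 nucleotides past the annotated end, miR-497a-5p and miR-15a-5p 1 nucleotide before it, and miR-16-5p has peaks at -2 and +1.

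Starts were precise for the 5p arms, of whose tags a mean of 0.897 to 2.05% began elsewhere than at the annotated base, so that their AGCAGCA seed was kept. The 3p arms were less exact, except miR-15b-3p, whose mean lay within the range of the 5p arms. The share of tags with another start was 75.7% ± 15.3 (SD, n = 7) for miR-497a-3p, 20.03% ± 4.62 for miR-16-1-3p, 5.54% for miR-15a-3p, 4.72% for miR-16-2-3p, 3.63% for miR-195a-3p and 1.98% for miR-15b-3p. In the order over the 11 members, miR-497a-3p was above miR-16-1-3p by 55.6 points and miR-16-1-3p above miR-15a-3p by 14.5 points, in 7 of 7 libraries each (exact sign-flip permutation test, adjusted p = 0.0391 for each).

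The forms of miR-497a-3p are shown because their starts give 3 different seeds (capitals, bases 2 to 8 of each tag).
miR-497a-3p, start 1 base early: cCAAACCAcactgtggtgttaga
miR-497a-3p, start 2 bases early: tCCAAACCacactgtggtgttag
miR-497a-3p, annotated start: cAAACCACactgtggtgttaga
These 3 made up 23.2% (1 base early), 21.3% (2 bases early) and 18.9% (annotated start) of its tags. By start alone, tags that began 1 base early took 47.5% ± 9.93 (SD, n = 7), those that began 2 bases early 28.1% ± 7.87 and those at the annotated base 24.3% ± 15.3. The start 1 base early was the commonest in 6 of 7 libraries. Its seed, CAAACCA, is that of 1 other RefSeq miRNA, miR-6715-3p, the CCAAACC seed of the start 2 bases early is that of 0, and AAACCAC is that of miR-497a-3p alone.

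For days 1 to 4 of time course 2, the share of miR-497a-3p tags with another start was 76.5, 76.6, 81.0 and 86.2%, and for days 1, 3 and 4 of time course 1 42.0, 85.9 and 81.5%. Day 1 of time course 1 stood apart, with 58.0% of tags at the annotated start against 13.8 to 23.5% elsewhere, and with the second lowest miR-497a-3p level. The share was higher in every library of days 3 and 4 than in any of days 1 and 2, as for 4.2% of all miRNAs compared. For day 4 against day 1 the log2 odds differed by 1.77 ± 0.74 (SE, limma adjusted p = 0.586), with 0 of 262 miRNAs called (0%, with 25 or 9.54% before adjustment), and by 0.69 without day 1 of time course 1. In that library 87.4% of miR-497a-3p tags also ran past the annotated 3′ end, against 36.6 to 57.8% in the other 6, and this share was lower in every library of days 3 and 4 than in any of days 1 and 2, as for 1.86% of miRNAs.

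**Figure D5:**
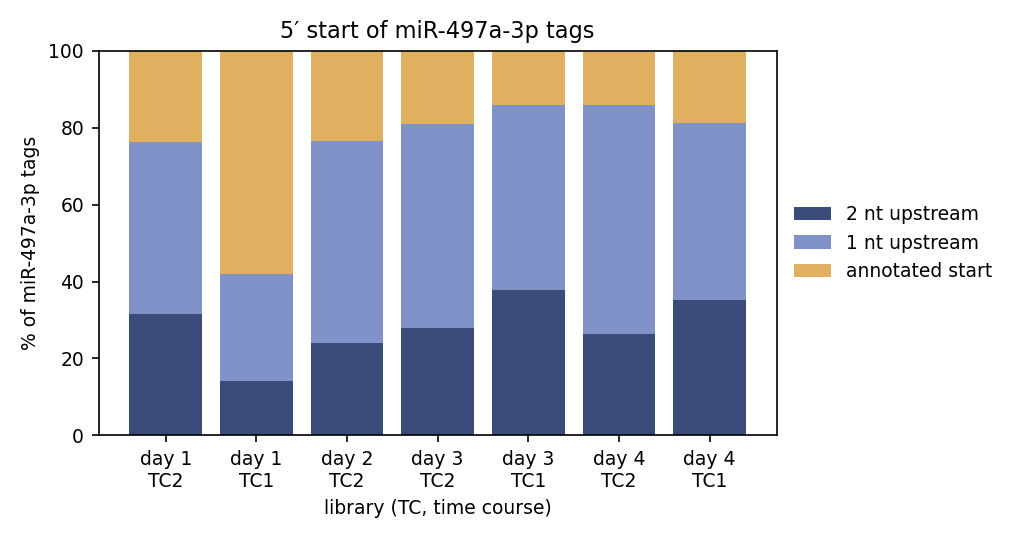
Starts of miR-497a-3p tags in nucleotides from the annotated start, in percent of its tags, as 1 stacked bar for each of the 7 libraries. The start 1 nucleotide early is the commonest in 6 libraries, and the annotated start, at 58.0%, in day 1 of time course 1.

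The tags of the members also differed in how often they carried 1 mismatch to the hairpin, between 3.41% for miR-497a-3p and 19.6% for miR-15a-5p. Mismatches within the seed were in 0.108 to 0.42% of tags. The change A12C, to the base that miR-15b-5p has there, was on 1153 tags, 2.82% of those of miR-15a-5p. Tags placed equally well on miR-15a-5p and miR-15b-5p were divided equally, which gave 93 to each. The origin of these tags was not tested.

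For each 5p member, the miRNAs whose TMM-scaled log2 CPM followed it most closely over the 7 libraries were found among 419 others with at least 150 tags. The values are Pearson's r and a description only, since the highest of 419 over 7 libraries that share 2 time courses is high by selection. miR-15a-5p was closest to miR-145a-3p (0.940) and miR-27b-3p (0.923). miR-16-5p was closest to miR-511-5p (0.921), which had only 163 tags over all libraries, and to miR-17-5p (0.886). miR-15b-5p was closest to miR-3107-5p (0.977, 28933 tags) and miR-486-5p (0.972, 29751 tags), whose hairpins lie on opposite strands of 1 locus. Tags that fit both equally well are divided between them, so the 2 values may not be separate. miR-195a-5p was closest to miR-29b-1-5p (0.948) and miR-497a-5p to miR-106b-3p (0.906) and miR-206-3p (0.904). None of the 5p members had another member's 5p arm among its closest 3, its cluster partner included.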

How the data were processed

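Small RNA of 7 HL-1 cultures was sequenced on SOLiD by the authors, and the authors deposited 1 table of tag sequences and their counts per library; the submitters' processing notes name mm9 as the genome build, and the deposited sequence and count columns alone were used. The values are raw read counts without molecular identifiers, with no normalization. Lines that repeat a sequence were summed (2.78 to 3.99% of the tags of a library were on such smaller repeat lines). Lines with no sequence (101 lines, 293 tags) were left out.

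Tags of at least 16 bases were placed, ungapped and with at most 2 mismatches, on the hairpins of GENCODE M21 (GRCm38). Of 41180989 deposited tags 92.9% matched exactly, 6.76% with 1 mismatch and 0.00679% with 2, and 0.342% were not placed. The deposited tags are close in number to those the authors mapped to hairpins, so these shares do not describe all sequenced RNA. A tag with several best places was divided equally (2.14% of the generic tags). Arm starts came from the RefSeq annotation, or from the commonest start of an arm that RefSeq does not list (266 arms). A tag that ran over the end of a hairpin was kept when the overhang was at most 4 bases.

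Levels were tested on counts with edgeR 4.0.16 (TMM, filterByExpr, quasi-likelihood test, day as factor) in R 4.3.3, with DESeq2 1.42.0 as an alternative. Shares (3p arm, end past the annotated end, start other than the annotated one) were tested as log2 odds with a pseudocount of 0.5 with limma 3.58.1, for miRNAs with at least 50 tags in each library and 10 of each outcome. Calls were made at a Benjamini-Hochberg adjusted p of 0.05 over all miRNAs tested. The order of members was tested within libraries by exact sign-flip permutation. The scripts were tested on simulated data. The day comparisons held the day alone, and the comparison of time courses held the day as well. The time course as a block was an alternative for the day comparisons, and a fit without the day for the comparison of time courses. The sign-flip test uses no block. The libraries of a time course are paired by culture series, the time courses being independent repeats, and residuals of the same time course correlated at 0.346 to 0.418 between days over 597 miRNAs. The p-values of the day comparisons measure the spread between libraries of 2 repeats of 1 cell line. Those between time courses compare 1 culture series with 1 other and take its days as replicates. The sign-flip test takes all 7 libraries as separate.

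The members, the miRNA lists and the comparisons were chosen with earlier results of these data known. Values per library are given for the members; values of single other miRNAs are given only for seed partners, for the 3 closest in pattern to a 5p member (of which up to 2 are printed) and for list members that passed. Alternatives were another scaling, another tool, no filter, other mismatch, start and shared-tag rules, other share settings, the time course as a block, and leaving out each library. Keeping only the line with the most tags for each repeated sequence and the interaction of day and time course were added after seeing the data.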

Additional observations from a re-analysis of the deposited data

Results flagged for a closer look

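Among 76 groups of 4 libraries checked, 4 held a library far from the other 3 by Dixon's 95% criterion, where chance gives about 1 in 20. Each concerned a small difference. On day 3 of time course 1, 6.54% of only 214 miR-195a-3p tags began elsewhere than at the annotated base. The other libraries of days 3 and 4 had 2.36 to 2.97%. The level of miR-195a-3p was also lowest on day 3 of time course 1. On day 2 of time course 2, miR-15a-5p was at 1115 CPM, against 938 to 950 CPM on the other days of that time course. On day 4 of time course 2, 93.03% of miR-195a-3p tags ran past the annotated end, against 89.0 to 89.2% on its other days. In the same library 1.68% of miR-16-5p tags had another start, against 1.39 to 1.43% on the other days.

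Tags that began outside the windows of both arms were present on all 6 hairpins and entered no comparison. They numbered 39 on Mir15a, 142 on Mir15b, 314 on Mir16-1, 129 on Mir16-2, 273 on Mir195a and 211 on Mir497, over all 7 libraries. The commonest such tag of Mir16-1 covered bases 38 to 57 of the hairpin, which is exactly the stretch between the end of the 5p arm (base 37) and the start of the 3p arm (base 58). The commonest of Mir497, with 157 tags, covered bases 36 to 53, again exactly between the end of the 5p arm (base 35) and the start of the 3p arm (base 54). The commonest such tag of Mir195a, with 58 tags, covered bases 2 to 20 and ended right before the 5p arm, which starts at base 21, and 168 Mir195a tags in all began before that arm. By place, 126 of the 142 Mir15b tags began inside the 5p arm, while those of Mir15a and Mir16-2 were spread, with 16 and 42 at the loop side of the 5p arm and 16 and 40 inside it.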

How the results depend on the processing

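Of 310 alternative values for 22 named member results, 288 kept their direction and their side of the threshold, 5 passed where the reported value did not (all of miR-16-2-3p) and 17 changed sign, mostly values near 0. For day 4 against day 1, the log2 fold change of miR-15a-5p was 0.013 with DESeq2, 0.016 with no filter and 0.013 with starts within 1 nucleotide, that of miR-16-5p was -0.14 with library totals and -0.0044 with 0 mismatches, and that of miR-195a-5p was -0.10 with library totals. Leaving out each library in turn gave -0.090 to 0.16 for miR-15a-5p, -0.15 to 0.40 for miR-16-5p, -0.19 to 0.19 for miR-16-1-3p, -0.18 to 0.0085 for miR-195a-3p, -0.66 to 0.22 for miR-497a-5p and -0.54 to 0.91 for miR-497a-3p. Calls over all miRNAs for day 4 against day 1 numbered 9 with DESeq2 and 10 with no filter, and for day 3 against day 1 8 with DESeq2 and 10 with no filter (0 to 1 when a library was left out). For days 3 and 4 against days 1 and 2 they numbered 8 with library totals, 15 with DESeq2, 6 with the replicate block of time course, and 0 to 4 when a library was left out, with 0 without either day 1 library, day 3 of time course 1 or day 4 of time course 2, and 1 without day 4 of time course 1. Between time courses they numbered 47 with DESeq2, 78 with no filter, 38 with 0 mismatches and 41 without shared tags. They numbered 61 with the largest line of each sequence and 40 when the day was left out of the fit. With a library left out they numbered 0 to 65, and 0 without either day 1 library. The time course as a block changed no other call. Shares with another start gave 2 calls with a minimum of 200 tags. Called neighbour pairs of the starts and ends numbered 8 with 0 mismatches and 0 with starts within 1 nucleotide, and those of the levels 0 with starts within 1 nucleotide; with a library left out both gave 0 to 0, where the smallest p that 6 libraries allow is 0.0312, so that these say nothing about stability. Why these values moved was not tested. Depth limits miR-16-2-3p and miR-16-1-3p most, with as few as 94 tags of miR-16-2-3p in a library.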
